A study of Homo sapiens with 16 samples.

Results

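INDY is a benzothiazole inhibitor of the DYRK family of protein kinases, and the comparison described here is that of quiescent U2OS cells given INDY with the same cells given its solvent, DMSO. U2OS is an established human osteosarcoma line. The comparison takes 8 of the 16 RNA-sequencing libraries of the study, 4 of cells kept for 24 h in 25 µM INDY and 4 of cells kept for 24 h in DMSO, and all 20446 of 59081 annotated genes that passed a filter on low counts. The cells of both groups had been grown to confluence and were without serum for 48 h, the compound being present in the last 24 h, so that serum starvation, confluence and DMSO were shared by the treated and the control cells. The other 8 libraries, of cells given harmine at 10 µM or water, entered the fit and the filter on low counts, and give the values against water quoted beside some results. Replicates were numbered 1 to 4 in each group. Nothing in the sources used here says that they were separate cultures, and the p-values reflect only how far these libraries vary, which may be technical. The genes of the DREAM complex and of DNA repair were not singled out here, and the account covers the rest of the transcriptome by gene group.

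DYRK1A, the intended target of INDY, phosphorylates transcription regulators, splicing factors and the cell cycle complex that holds cells in quiescence. Its relatives, the CLK kinases, phosphorylate SR proteins, the splicing factors that mark exons for the spliceosome, and benzothiazoles of this kind are known to act on CLK kinases as well as on DYRK kinases. Quiescent mesenchymal cells are known for a large output of extracellular matrix and for the secretory and lipid-making machinery that goes with it.

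The 8 libraries held from 46139493 to 63417104 estimated counts. Of 12 osteoblast markers, 5 (SP7, BGLAP, IBSP, COL1A2 and DMP1) stood under 1 CPM (counts scaled to the TMM library size) in both groups. The summed osteoblast markers held 841 to 922 CPM with DMSO and 599 to 708 CPM with INDY. By the test described below, 5 of 8 tested were lower and 1 higher. The mesenchymal markers held 3670 to 3910 CPM and 3460 to 3850 CPM, although 4 of 7 were lower and 1 higher (median log2 fold change −0.51). Summed markers of other cell types held 51.2 to 62 CPM with DMSO and 36.4 to 48.5 CPM with INDY for epithelial cells and 32.3 to 35.1 CPM and 7.3 to 9.16 CPM for blood cells. The blood cell sum with DMSO was almost wholly ITGAM, which fell from 31.9 to 34.7 CPM to 4.75 to 7.80 CPM, while CD14 rose from 0.0199 to 0.130 CPM to 1.07 to 2.26 CPM and PTPRC and CD3E stayed under 1 CPM. Neuronal markers summed to 113 to 119 CPM with DMSO and 117 to 127 CPM with INDY, endothelial markers to 6.78 to 7.21 CPM and 3.20 to 4.33 CPM, and muscle markers to 2.14 to 2.26 CPM and 5.05 to 8.2 CPM. Their part in the results was not tested. In bulk RNA of this kind, fewer cells of a type and less RNA per cell cannot be told apart.

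INDY moved most of the transcriptome. Of the 20446 genes tested, 66.6% passed edgeR's quasi-likelihood test at a Benjamini-Hochberg adjusted p under 0.01, the threshold used throughout, with 33.2% higher and 33.4% lower with INDY. The 2 groups did not overlap in 67.5% of genes. The median log2 fold change over all genes was −0.01 and its quartiles were −0.50 and 0.37. The counts below are thus set against a background in which about equal numbers of genes went each way. That background varied with level among protein-coding genes. In the lowest of 10 groups by mean log2 CPM 17.7% were higher and 33.9% lower, and in the highest 46.4% and 30.9%. Between DMSO and water, 4.29% of genes passed the same test. The labels give DMSO as the control of INDY and water as that of harmine, so solvent and control set cannot be told apart. Without INDY replicates 1 and 3, 6213 genes were higher and 6053 lower with INDY, and without replicates 2 and 4, 6755 and 6637. The first principal component of the 8 libraries held 76.7% of the variance and separated INDY from DMSO. The second, with 5.23%, scored highest in INDY replicate 3 (27.6), DMSO replicate 1 (16.4) and INDY replicate 1 (12.4). INDY replicates 2 (−22) and 4 (−25.3) scored lowest, and DMSO replicates 2, 3 and 4 lay from −5.13 to 0.713.

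**Figure D1:**
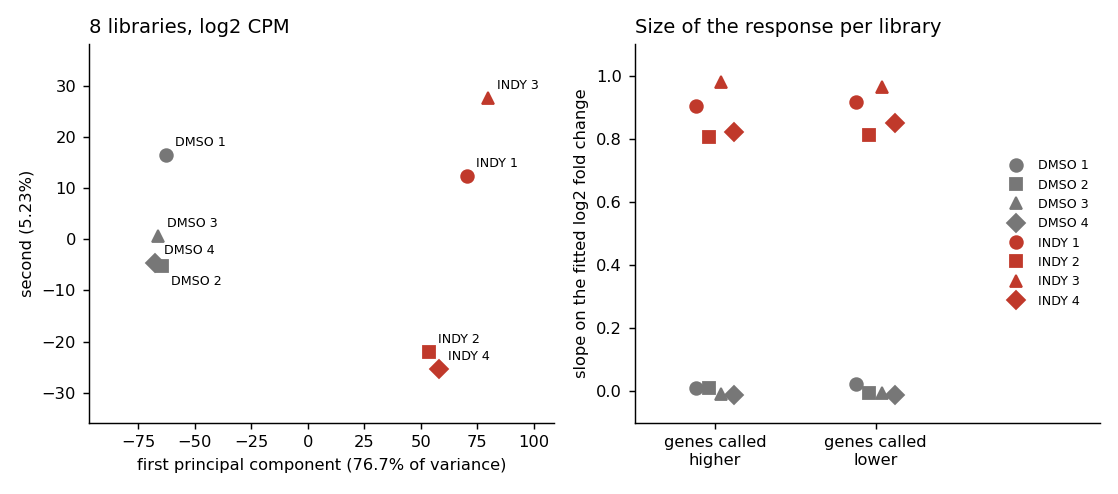
Left, the 8 libraries on the first 2 principal components of log2 CPM. Right, the slope of each library's change on the fitted fold changes for the genes called higher and for those called lower, where 0 is the DMSO mean. INDY replicates 1 and 3 lie above replicates 2 and 4 in both. On the right the DMSO libraries lie near 0, their mean being the reference.

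Protein-coding genes were ranked if their mean log2 CPM over the 8 libraries was at least 1 and the 2 groups did not overlap. Among them the largest rise was that of LTA (ENSG00000226979, GRCh38 chr6:31572054-31574324), which reached that level only through the INDY libraries. LTA encodes lymphotoxin alpha, a cytokine of the tumour necrosis factor family. The DMSO libraries held 0.601, 0.716, 0.531 and 0.667 CPM of LTA, and the INDY libraries 23.5, 24, 30.4 and 24.1 CPM. Each INDY library lay far above each DMSO library, and the log2 fold change was 5.35 (SE 0.13, adjusted p 1.92e-16 by edgeR). LTB, its neighbour in the same locus and its partner in a membrane-bound cytokine, moved the other way, from 11, 7.58, 7.98 and 8.01 CPM to 1.141, 1.38, 1.35 and 1.35 CPM. Its log2 fold change was −2.73 (SE 0.18, adjusted p 8.68e-11 by edgeR), and LTB in the DMSO libraries differed by −0.80 from the water libraries. SARM1, which encodes an NAD-cleaving enzyme of injured axons, rose from 4.13, 3.74, 3.85 and 3.90 CPM to 28.4, 28.6, 35.6 and 25.2 CPM, a log2 fold change of 2.92 (SE 0.10, adjusted p 1.67e-14 by edgeR). ESM1, a secreted proteoglycan also called endocan, rose from 12.2 to 15.6 CPM with DMSO to 104, 66, 128 and 80.8 CPM with INDY, with replicates 1 and 3 above replicates 2 and 4.

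Several of the other large rises were of genes at a low level in these cells with DMSO. PYGM, the muscle glycogen phosphorylase, rose from 0.685 to 1.05 CPM to 8.50 to 12.1 CPM. AVIL, an actin-bundling protein of sensory neurons, rose from 0.603 to 0.812 CPM to 6.54 to 9.25 CPM, and TAS2R5, a bitter taste receptor, rose from 0.557 to 0.845 CPM to 6.09 to 8.67 CPM. GUCA1B, a photoreceptor protein that activates guanylate cyclase, rose by 3.31 on the log2 scale, EFCAB12 by 2.86, the retinoic acid-binding protein CRABP2 by 2.85, the neurotrophic cytokine CNTF by 2.75 and the transcription factor MEF2B by 2.74. These genes were ranked only among those whose 2 groups did not overlap. PYGM, AVIL and TAS2R5, like LTA, reached the mean level needed for the ranking only through the INDY libraries. Their low level with DMSO thus goes with the way the genes were ranked.

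Among the falls, the neuropeptide gene VIP dropped from 11, 10.1, 10.2 and 10.5 CPM to 0.740, 0.697, 0.401 and 0.556 CPM (log2 fold change −4.14, SE 0.13, adjusted p 3.66e-15 by edgeR). COL11A1 (GRCh38, chromosome 1), a chain of a fibrillar collagen, dropped from 83.9, 80.8, 83.6 and 80.9 CPM to 7.80, 6.92, 6.70 and 6.26 CPM (log2 fold change −3.57, SE 0.05, adjusted p 9.36e-20 by edgeR). In the DMSO libraries it differed by −0.38 from the water libraries. GPD1L, a glycerol-3-phosphate dehydrogenase, dropped from 36.6 to 40.1 CPM to 3.40 to 5.21 CPM. The coagulation factor subunit F13A1 (−3.22), the ubiquitin ligase RNF157 (−3.19) and the IGFBP-cleaving protease PAPPA2 (−3.10) followed on the log2 scale. After them came the adhesion molecules IGLON5 (−3.06) and NTM (−2.72), the protease MMP7 (−2.97) and the ligand WNT2B (−2.95). As with the rises, only genes whose groups did not overlap were ranked.

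The abundant genes that changed at least 2-fold gave a view of the bulk of the RNA. SF1, which binds the intron branch point, rose from 228 to 238 CPM to 507 to 546 CPM, a log2 fold change of 1.16 (SE 0.03, adjusted p 4.41e-17 by edgeR). OGFR, an opioid growth factor receptor, rose from 133 to 142 CPM to 362 to 462 CPM, and SLC3A2, the heavy chain of several amino acid transporters, from 144 to 153 CPM to 316 to 375 CPM. Cyclin D2 (CCND2, 1.04), filamin C (FLNC, 1.03) and the FACT subunit SSRP1 (1.05) also rose on the log2 scale. SLC5A3, which carries myo-inositol into cells, rose unevenly, from 141, 102, 101 and 96.5 CPM to 385, 214, 419 and 235 CPM (log2 fold change 1.51, SE 0.22, adjusted p 4.81e-06 by edgeR), and both its DMSO replicate 1 and its INDY replicates 1 and 3 lay above the others of their groups.

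The abundant genes that fell included 2 of the main matrix proteins. COL4A2, a basement membrane collagen, dropped from 1955, 2092, 2041 and 2034 CPM to 710, 815, 635 and 756 CPM, and fibronectin (FN1) from 820, 932, 945 and 862 CPM to 314, 348, 260 and 319 CPM. ITGB5, an integrin subunit that binds vitronectin, dropped from 681, 667, 675 and 668 CPM to 152, 172, 150 and 168 CPM (log2 fold change −2.07, SE 0.04, adjusted p 1.39e-18 by edgeR). SNRNP200, the helicase that opens the spliceosome for catalysis, fell by 1.02, the mannose 6-phosphate receptor IGF2R by 1.26, and PXDN, which cross-links collagen IV, by 1.31 on the log2 scale.

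**Figure D2:**
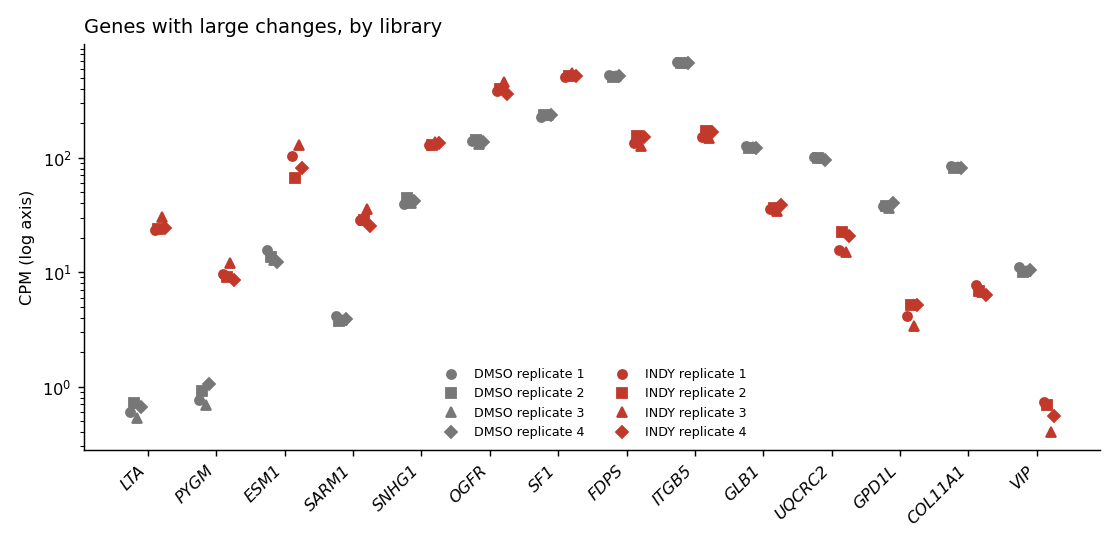
CPM on a log axis of 14 genes in each of the 4 DMSO (grey) and 4 INDY (red) libraries, 1 symbol per replicate number. The groups do not overlap in any of the 14, a condition on which the genes of the largest rises and falls were chosen. LTA and VIP show the largest rise and fall.

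Most matrix genes were lower. Of 39 collagen chains tested, 30 were lower and 2 higher, with a median log2 fold change of −0.91, beside a median of −0.01 over all genes. COL6A5 (−3.30) and COL8A2 (−2.90) followed COL11A1, both at under 2 CPM with DMSO, and COL1A1, the main bone collagen, dropped from 141 to 148 CPM to 106 to 121 CPM. Of 20 collagen-modifying enzymes, 16 were lower and 1 higher, with a median of −0.43, among them the processing enhancer PCOLCE2 (−1.85) and the cross-linking oxidases LOX (−1.47) and LOXL3 (−1.36). Of 39 matrix glycoproteins and proteoglycans, 26 were lower and 3 higher. TGFBI, a secreted adhesion protein, dropped from 325 to 340 CPM to 96.7, 121, 76.9 and 121 CPM, and LAMA1, a laminin chain, from 170 to 175 CPM to 57.2 to 66.9 CPM. Of 23 integrin chains, 14 were lower and 4 higher (median −0.56), and of 18 matrix metalloproteinases and their inhibitors, 10 were lower and 3 higher, with MMP10 (2.61) against the trend.

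Some groups of cell surface genes were mostly lower, while others that signal inside the cell were not: of 42 genes of the MAP kinase cascade 17 were higher and 17 lower, of 35 genes of the YAP and TEAD pathway 11 were higher and 12 lower, and of 18 DUSP phosphatases 10 were higher and 5 lower. Of 61 protocadherins, which mediate adhesion between like cells, 41 were lower and 4 higher, with a median of −0.91. PCDHGA10 and PCDHGB5 both had −2.30, on the log2 scale, and since the genes of that cluster share their last exons the split of reads among them is uncertain, while PCDH19, which lies apart, rose by 2.48. Of 37 receptor tyrosine kinases, 22 were lower and 8 higher, with the ephrin receptor EPHB2 going from 248 to 257 CPM to 70.6 to 91.3 CPM and PDGFRB from 77.3 to 84 CPM to 26.4 to 29 CPM. Of 10 genes of the IGF system, 7 were lower and 1 higher. IGFBP5, which binds insulin-like growth factors in bone, dropped from 20.6 to 28.4 CPM to 3.95 to 5.47 CPM, and IGFBP7 fell by 1.08 on the log2 scale. ALPL, the bone alkaline phosphatase, dropped from 16.8 to 19.5 CPM to 2.68 to 4.60 CPM, and TAGLN, a smooth muscle actin-binding protein, from 46.9 to 55.5 CPM to 10.8 to 12.5 CPM, although the SRF and actin cytoskeleton list to which TAGLN belongs went both ways, with 16 of 39 higher and 18 lower.

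Most chaperone and unfolded protein response genes of the endoplasmic reticulum were lower, while of 30 genes of the secretory coats and their regulators 12 were higher and 10 lower. This organelle answers misfolded protein by raising chaperones through the factors XBP1 and ATF6. Of 29 chaperone and unfolded protein response genes, 21 were lower and 3 higher (median −0.43). Among the targets alone, 18 of 23 were lower and 2 higher, and the sensors stood near their DMSO levels: ATF6 at 0.10, ERN1 at −0.04 and EIF2AK3 at −0.01 on the log2 scale. ERN1 and EIF2AK3 did not pass the test, and ATF6 passed it narrowly, with overlapping groups (adjusted p 0.00542 by edgeR), and lost the call without any 1 of 5 libraries (DMSO replicates 1, 2 and 4, INDY replicates 1 and 4), at 0.09 to 0.10. ATF6B, a relative of ATF6, dropped from 140 to 143 CPM to 65.2 to 73.8 CPM. Among the chaperones named after their values were seen, HSPA5 (−0.98), HSP90B1 (−0.87), CALR (−0.77) and CANX (−0.63) fell on the log2 scale.

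CRELD2, a secreted ER protein, went from 65.9, 66.7, 67.7 and 66.5 CPM to 22.4, 25.1, 22.5 and 23.8 CPM, with a log2 fold change of −1.51 (SE 0.04, adjusted p 1.85e-15 by edgeR). HSPA5, the main ER chaperone, went from 697, 688, 725 and 698 CPM to 355, 357, 347 and 367 CPM, and XBP1 from 74.8 to 78.5 CPM to 51 to 58.4 CPM. EDEM1, which sends misfolded glycoproteins to degradation, went from 349 to 356 CPM to 149 to 173 CPM. In each of the 4 genes every INDY library lay below every DMSO library. Cytosolic chaperones, by contrast, were mostly higher: 14 of 23 heat shock genes rose and 2 fell, with a median of 0.32, among them CHORDC1 (0.58) and HSPH1 (0.55). HSPA1A (0.53) has a near-identical copy, so its share of the reads is uncertain, and the heat shock factors HSF1 and HSF2 did not pass.

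The integrated stress response, which cuts translation when amino acids or ER function fail and raises amino acid genes through ATF4, was lower among its targets. Of its 23 targets 15 were lower and 3 higher (median −0.61), and of its 12 regulators 5 were higher and 4 lower, shares near those over all genes. The difference between targets and regulators was not tested. ATF4 itself rose by 0.13 and DDIT3 by 0.36 on the log2 scale. ATF3 rose from 18.8 to 20 CPM to 52.6, 46.9, 60.3 and 48.4 CPM, and SLC7A11, the cystine importer, dropped from 65.7, 65, 69.6 and 67.5 CPM to 20.1, 30.2, 12.7 and 22.9 CPM. Replicates 1 and 3 were again the farther from DMSO in both genes, and the median of the whole list of 35 genes was −0.33, −0.22 without INDY replicate 3, −0.19 without replicates 1 and 3 and −0.56 without replicates 2 and 4. Of 20 cytosolic aminoacyl tRNA synthetases, which charge tRNAs, 15 were lower and 2 higher, with LARS1 (−1.02), IARS1 (−0.94) and VARS1 (−0.83) the largest.

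Many lipid genes were lower too. Of 25 genes of sterol synthesis and uptake, 20 were lower and 3 higher, with a median of −0.53. Farnesyl diphosphate synthase (FDPS) dropped from 525, 510, 514 and 523 CPM to 136, 154, 127 and 153 CPM (log2 fold change −1.87, SE 0.05, adjusted p 2.46e-16 by edgeR), and lanosterol synthase (LSS) from 313 to 328 CPM to 119 to 133 CPM. SREBF2, the transcription factor of the pathway, went from 385 to 390 CPM to 241 to 254 CPM, and its regulators INSIG1 (−0.56) and SCAP (−0.20) fell, while TM7SF2, a sterol reductase, rose from 4.80 to 5.67 CPM to 11.6 to 16.6 CPM. Of 18 genes of fatty acid synthesis 10 were lower and 4 higher. FADS1, a fatty acid desaturase, dropped from 225 to 237 CPM to 62.1 to 75.6 CPM, and SREBF1, the matching factor, did not pass (0.04 on the log2 scale).

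Most interferon-induced genes and genes of class I antigen presentation were lower. Of 37 interferon-induced targets, 29 were lower and 3 higher, with a median of −0.94, and of 12 regulators 6 were higher and 3 lower (median 0.15). IRF9 (0.14) did not pass, and STAT2 fell by 0.35. Of 15 genes of class I presentation, which shows peptides to T cells, 12 were lower and 1 higher, among them the activator NLRC5 (−1.78), the trimming protease ERAP1 (−1.32) and the peptide pump TAP1, which went from 163 to 169 CPM to 61.7 to 75.6 CPM.

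IFI44L, an interferon-induced gene, went from 9.37 to 10.3 CPM to 1.74, 2.26, 1.49 and 1.45 CPM (log2 fold change −2.49, SE 0.10, adjusted p 1.78e-13 by edgeR). DDX60, a helicase of antiviral defence, went from 42.5 to 45.5 CPM to 7.90 to 14.3 CPM. The DMSO libraries differed from the water libraries by −0.29 and −0.37 on the log2 scale for the 2 genes, neither of which passed the test. Of 41 chemokines and interleukins 26 were lower and 6 higher (median −0.69). Of the NF-kB list, 13 of 21 targets were lower and 6 higher, and of its 11 regulators 6 were higher and 1 lower: NFKB1 rose by 0.38 and RELA by 0.45, and the feedback inhibitor TNFAIP3 fell by 0.74 on the log2 scale.

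Most of the listed lysosomal components, of a kind that the MiT factors are known to drive, were lower. Of 29 lysosomal components 20 were lower and 5 higher (median −0.38). The V-ATPase subunits, counted as a separate class, did not share this, with 6 of 20 higher and 3 lower (median 0.07). Among 27 autophagy genes 11 were higher and 9 lower. GLB1, the beta-galactosidase, dropped from 128, 122, 123 and 121 CPM to 36, 36.7, 34 and 38.5 CPM (log2 fold change −1.77, SE 0.03, adjusted p 6.97e-18 by edgeR), and the acid lipase LIPA fell by 0.98. MITF rose by 0.46, and TFEB (0.13) and TFE3 (0.01) did not pass, although TFEB passed at 0.29 without INDY replicates 2 and 4. Groups of energy metabolism differed. The tricarboxylic acid cycle leaned lower, with 12 of 21 genes lower and 4 higher, while among 18 glycolytic enzymes 7 were higher and 4 lower. Single nuclear-encoded mitochondrial genes had large falls. UQCRC2, a complex III core subunit, went from 95.7 to 101 CPM to 15.5, 22.3, 15.1 and 20.7 CPM (log2 fold change −2.44), SUCLG2, a subunit of succinyl-CoA synthetase, from 35.5 to 39.1 CPM to 7.03 to 8.44 CPM, and ATP5MC1, an ATP synthase subunit, by −1.51 on the log2 scale, while of 21 tested subunits of complexes III and IV 10 were higher and 5 lower. Of 13 mitochondrially encoded mRNAs, 1 passed the test, as lower. TXNIP and ARRDC4, arrestins induced by glucose, went from 41.5, 71.1, 71.8 and 73.7 CPM to 13.9, 24.9, 13.4 and 23.8 CPM and from 23, 35.3, 35.1 and 39.2 CPM to 9.46, 11.7, 8.86 and 12 CPM. DMSO replicate 1 was the lowest DMSO library in both, and the DMSO libraries stood 1.27 and 0.98 above the water libraries (log2).

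**Figure D3:**
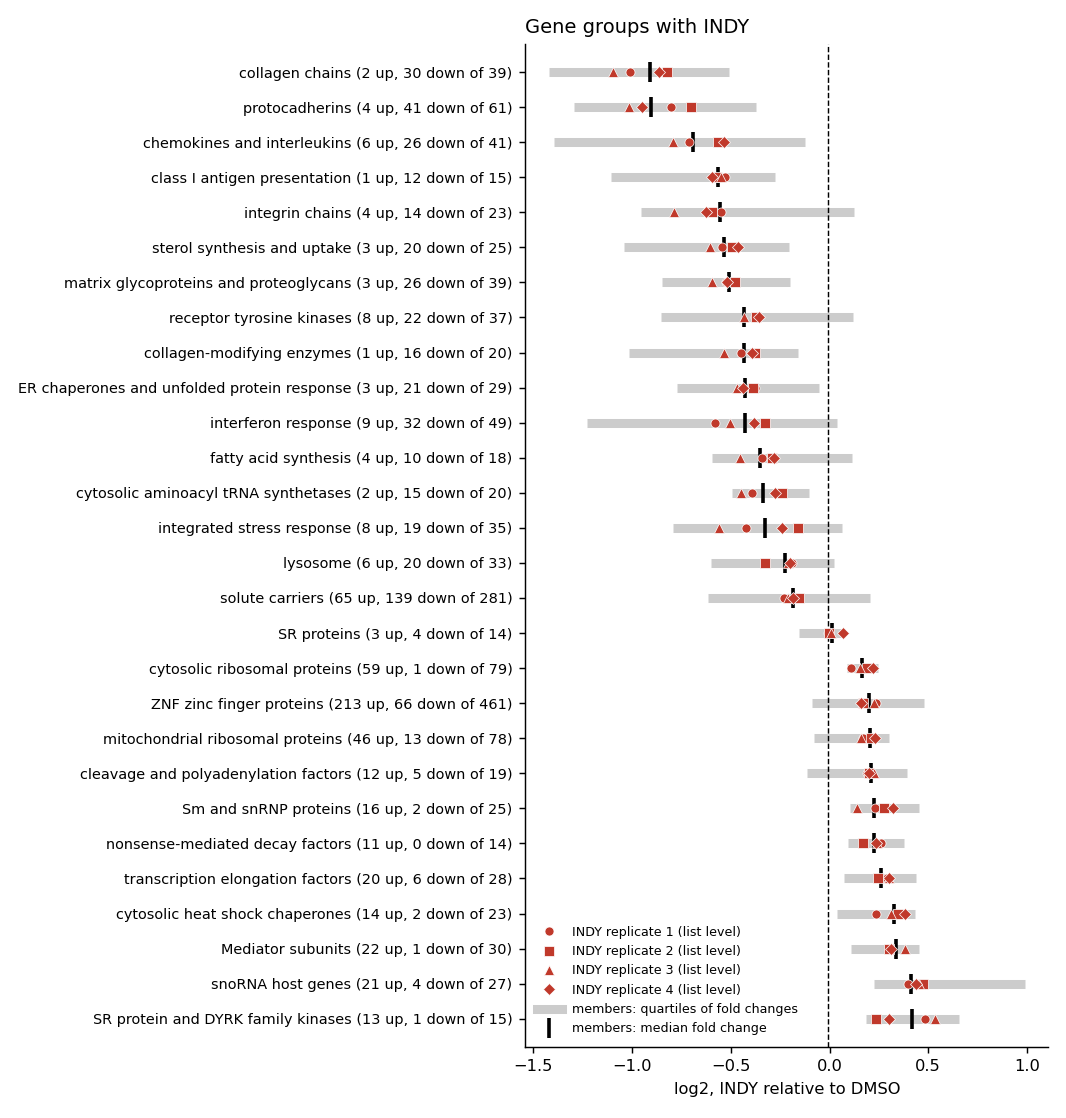
Gene groups ordered by median log2 fold change. Grey bars span the quartiles of the members' fold changes, black ticks their median, and red symbols, for each INDY library, the median over the list of log2 CPM less the mean of the DMSO libraries. The dashed line is the median of all genes tested. All 4 INDY libraries lie below 0 for the groups from collagen chains to solute carriers and above 0 for those from cytosolic ribosomal proteins to the kinases.

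Several groups of RNA-processing genes and of kinases that act on them were mostly higher. Of the kinases, 13 of 15 kinases of SR proteins and of the DYRK family were higher and 1 lower, with a median of 0.42. DYRK1A itself went from 17.7, 18.3, 17.7 and 17 CPM to 22.3, 19.4, 22.4 and 19.6 CPM, a log2 fold change of 0.25 (SE 0.05, adjusted p 0.000372 by edgeR), with no overlap. Without INDY replicates 1 and 3 together DYRK1A no longer passed, at 0.15 on the log2 scale (adjusted p 0.0167 by edgeR), and the median of the 15 kinases was 0.27. DYRK4 rose from 21.6 to 23 CPM to 53.9 to 68.2 CPM (1.42 on the log2 scale) and DYRK1B by 1.05 at 1.74 to 4.71 CPM. CLK3 (0.70), CLK2 (0.67), DYRK3 (0.64), CLK1 (0.46), CLK4 (0.46), HIPK3 (0.41), HIPK1 (0.26), SRPK1 (0.19), DYRK2 (0.19) and SRPK2 (0.16) rose as well, PRPF4B (0.05) did not pass and HIPK2 fell by 0.47. The SR proteins themselves did not rise as a group, with 3 of 14 higher and 4 lower (median 0.01, and −0.02 to 0.03 under the alternatives). TRA2A, a splicing activator, dropped from 35.8 to 38.1 CPM to 16.6 to 17.5 CPM, SRSF7 fell by 0.48 and SRSF11 rose by 0.40. Of 24 hnRNP proteins 12 were higher and 7 lower, and of 50 DEAD and DEAH box helicases 25 were higher and 16 lower.

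Many members of core splicing and transcription complexes were higher by small amounts. Of 25 Sm and snRNP proteins 16 were higher and 2 lower (median 0.22), led by SNRPA (0.76), SNRPB (0.64) and LSM10 (0.55), and of 15 proteins of the U2 snRNP and SF3 complex 9 were higher and 1 lower, with SF3A2 (0.64) and SF3B4 (0.50). Of 14 factors of nonsense-mediated decay 11 were higher and the others did not pass, and UPF1, its helicase, rose from 83.8 to 91.6 CPM to 139 to 170 CPM. Of 19 cleavage and polyadenylation factors 12 were higher and 5 lower: CPSF7 rose by 0.76 and RBBP6 by 0.83, and PCF11, a termination factor, fell by 0.88 on the log2 scale, from 40.1, 45.3, 43.2 and 43.2 CPM to 23.1, 25.7, 20.8 and 23.6 CPM. Of 28 elongation factors 20 were higher and 6 lower, with CDK9 (0.61) higher and AFF1 (−1.02) lower, and of 30 Mediator subunits 22 were higher and 1 lower.

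Ribosomal proteins and snoRNA host genes were mostly higher, while of 37 factors of ribosome biogenesis and RNA polymerase I 13 were higher (35.1%, near the 33.2% over all genes) and 5 lower. Of 79 cytosolic ribosomal proteins 59 were higher and 1 lower, with a median of 0.17 and members such as RPL10 (0.46) and RPL22 (0.50), and of 78 mitochondrial ribosomal proteins 46 were higher and 13 lower. Of 27 snoRNA host genes, whose introns carry the small RNAs that guide rRNA modification, 21 were higher and 4 lower (median 0.41). SNHG1 rose from 39.5, 44.5, 40.5 and 41.8 CPM to 130, 130, 138 and 136 CPM (log2 fold change 1.68, SE 0.04, adjusted p 1.87e-16 by edgeR). Of 461 ZNF zinc finger genes 213 were higher and 66 lower (median 0.20), the extremes being ZNF333, which went from 13.2 to 14.8 CPM to 61.4 to 75.6 CPM, and ZNF469, which went from 3.74 to 4.36 CPM to 0.299 to 0.610 CPM.

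Early response genes were mostly higher. Of 28 immediate early genes 15 were higher and 1, KLF4 (−0.95), was lower. Genes of the cleavage-stage embryo, which DUX4 activates, were higher in 11 of 15 tested and lower in 2. ZSCAN4 rose from 6.60 to 7.15 CPM to 21.4 to 25.6 CPM, and its DMSO libraries differed by −0.54 from the water libraries (log2). DUX4 lies in near-identical repeats and its reads are uncertain. The homeobox genes went the other way, with 15 of 34 HOX genes lower and 3 higher, among them HOXB9, which went from 61.4 to 64.3 CPM to 22.9, 29.1, 17.5 and 25.7 CPM.

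The direction of change also varied with the structure of the gene. Among protein-coding genes in 10 equal groups by annotated span, the longest, 182360 to 2473539 bp, had 277 of 1520 higher and 791 lower (52.0%), with a median of −0.30, whereas the other groups held 28.8% to 42.1% lower. Genes of low level were called higher less often, at 17.7% in the lowest of 10 groups by mean log2 CPM beside 35.1% of all protein-coding genes. The median in that group was −0.46, and 33.9% were lower. The 2 properties were therefore set side by side. In genes with a mean log2 CPM of at least 3 the median was 0.07 in the shortest of 5 groups by span and −0.08 in the longest. In the others it was −0.11 and −0.52. Of 385 processed pseudogenes, 145 were higher and 48 lower (median 0.40), which share sequence with their parent genes so that the split of reads is uncertain, and of 3784 lncRNA genes 949 were higher and 1164 lower.

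**Figure D4:**
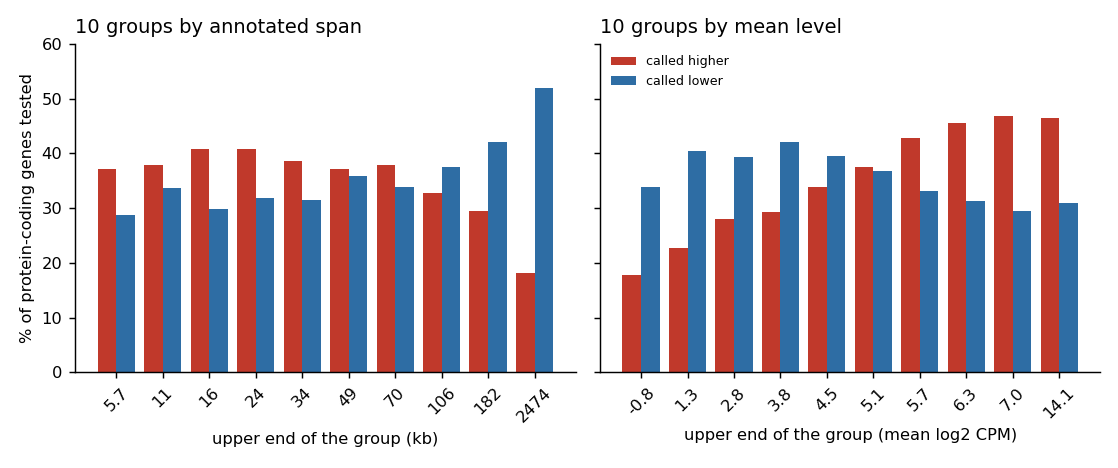
Share of protein-coding genes called higher (red) or lower (blue) with INDY in 10 equal groups by annotated span (left) and by mean log2 CPM (right), each labelled by its upper end. The longest genes have 18.2% higher and 52.0% lower, and the share called higher goes from 17.7% in the lowest group by level to 46.4% in the highest.

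Many of the largest rises lay just downstream of another active gene. This pattern was looked for after the values were seen, and it is given as a description. Of the 276 protein-coding genes at least 4-fold higher, 122 (44.2%) overlapped, or began within 5000 bp downstream of the end of, an expressed gene on the same strand (mean log2 CPM at least 3), beside 12.4% of all 15194 protein-coding genes tested and 4.55% of those at least 4-fold lower. Among genes that began 1 to 5000 bp past the end of such a neighbour, without overlap, the shares were 27.2%, 8.72% and 2.42%. A gene that is low with DMSO could pass the filter on low counts through its INDY libraries, and how many of the rises did so was not counted. A gene at least 4-fold lower could likewise pass it through its DMSO libraries. The shares of rises, falls and all genes are thus of sets that entered differently, and nothing is concluded from setting them side by side. The mean log2 CPM includes the INDY libraries too, so a split by that level does not remove this. Within the 4764 genes with a mean log2 CPM under 3 the share was 43.6% of the 266 at least 4-fold higher, beside 15.3% of all and 12 of the 300 at least 4-fold lower, and at 3 or more it was 6 of 10, beside 11% of all. An expressed gene within the same distance upstream on the opposite strand was found for 4.71% of the rises and 9.90% of all genes. One that started within that distance downstream of the end, on the same strand, was found for 10.9% and 8.08%. With harmine against water, 11.1% of the 54 protein-coding genes at least 4-fold higher began 1 to 5000 bp past a same-strand neighbour, beside 8.72% of all. Among the lncRNA genes at least 4-fold higher the same-strand share was 38.9% of 226, beside 14.6% of all lncRNA genes tested. PYGM begins 4632 bp past the end of SF1, AVIL 1193 bp past CTDSP2, TAS2R5 2295 bp past SSBP1, SARM1 673 bp past TMEM199, EFCAB12 2311 bp past MBD4 and CNTF 1115 bp past ZFP91, the neighbours being named for their place. The upstream neighbours did not move as one: of the 75 that ended within that distance, 34 were higher and 23 lower, with a median log2 fold change of 0.11, and TMEM199 fell by 0.99 where SARM1 rose. The 75 genes themselves went from a median of 0.167 CPM with DMSO to 1.476 CPM with INDY, beside 48.8 CPM for their neighbours.

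**Figure D5:**
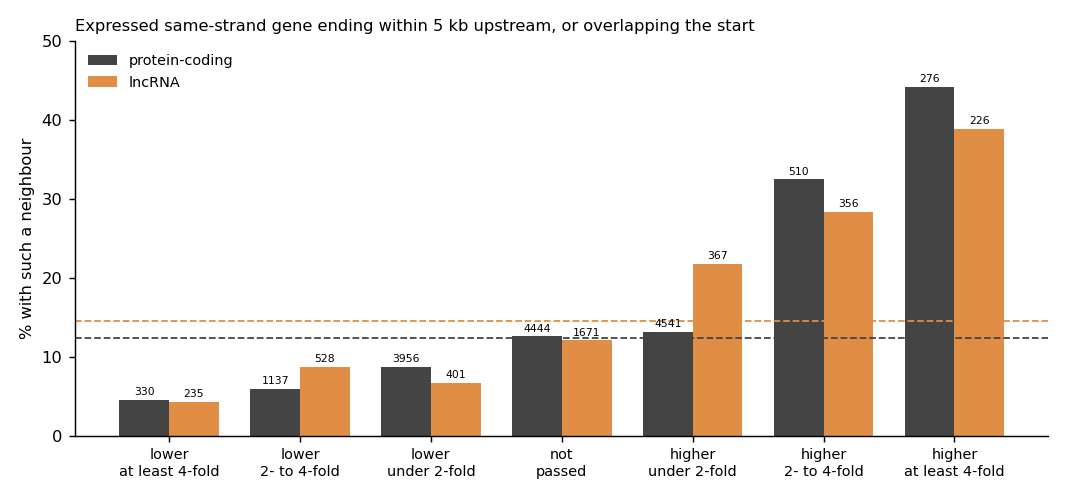
Share of tested protein-coding (dark) and lncRNA (orange) genes that overlap, or begin within 5000 bp past the end of, an expressed gene on the same strand, by size and direction of the change with INDY. Numbers above bars are genes and dashed lines the shares over all genes of that kind. The share rises from 4.55% of protein-coding genes at least 4-fold lower to 44.2% of those at least 4-fold higher. Genes could pass the filter on low counts through the group in which they were high, so the classes entered differently.

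The 4 INDY libraries differed in the size of the response, and on the second principal component. Over the called genes, the slope of each library's change on the fitted fold changes was 0.910 in replicate 1, 0.808 in replicate 2, 0.972 in replicate 3 and 0.835 in replicate 4, and between −0.012 and 0.017 in the DMSO libraries. Replicate 3 was the INDY library farthest from the DMSO mean for 50.9% of the called genes, beside 12.6% to 18.4% for each of the others. Groups differed in whether they followed this order. The level of the SR protein and DYRK kinases was 0.49, 0.24, 0.53 and 0.30 in replicates 1 to 4 and that of the integrated stress response −0.42, −0.16, −0.56 and −0.24, both larger in replicates 1 and 3, whereas the cytosolic ribosomal proteins had 0.11, 0.19, 0.16 and 0.22 and the Sm and snRNP proteins 0.23, 0.28, 0.14 and 0.32, larger in replicates 2 and 4. What set the replicates apart was not tested.

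Harmine, another DYRK1A inhibitor, was given at a different dose and in water, so its values stand beside those of INDY without a comparison. On the log2 scale and against water, it moved LTA by 2.63, COL11A1 by −0.81, HSPA5 by −0.81, FDPS by −0.42, SARM1 by 1.01 and FN1 by 0.90, where INDY against DMSO moved them by 5.35, −3.57, −0.98, −1.87, 2.92 and −1.52.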

How the data were processed

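The libraries were RNA-seq of U2OS cells, in 4 groups of 4. Per the labels and methods, the authors quantified reads with Salmon (1.1, per the submitters' processing notes) against GENCODE transcripts and deposited estimated counts per gene. These were rounded to whole numbers and tested here with edgeR 4.0.16 (R 4.3.3) by filterByExpr (minimum count 10), TMM and quasi-likelihood fits over all 16 libraries. Of 59081 genes, 20446 were tested, from libraries of 44301642 to 65889487 counts. CPM used TMM-scaled totals. Salmon shares reads among similar transcripts, so near-identical copies are uncertain.

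Named genes were the 15 largest rises and falls of expressed protein-coding genes that passed the test and whose 2 groups did not overlap. Also named were the 10 most abundant at least 2-fold changed each way, the 3 largest per list, and all regulators, markers and DYRK family kinases. Members and lists were chosen with earlier results of these data known. The symbol patterns of the integrin and snRNP classes were corrected, and the position and neighbour descriptions chosen, after values were seen. Coordinates are from GENCODE 44. A few genes are not reported here. Lists got counts and medians, with no test. The replicate number was not used as a block: the correlations of same-numbered DMSO and INDY libraries' deviations were 0.0868, 0.0449, −0.0193 and 0.0602. Alternatives were DESeq2 1.42.0, limma 3.58.1 (voom), other scalings, filters and thresholds, the 8 libraries alone, the replicate block and libraries left out.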

Additional observations from a re-analysis of the deposited data

Results flagged for a closer look

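Among 412 groups of 4 libraries, 23 held a library that lay apart from the other 3 by Dixon's criterion, which chance gives in about 1 group in 20. DMSO replicate 1 was that library for 12 of the genes and lists, and stood highest for SLC5A3 (141 CPM, the others 96.5 to 102), LTB (11, the others 7.58 to 8.01), PDGFRB (84), DDX60 (45.5), LOXL3 (8.90) and RPL22 (366) and lowest for TXNIP (41.5, the others 71.1 to 73.7), CLK2 (37.9), STAT2 (90.2) and SCAP (199), and lowest for the level of the matrix metalloproteinases and TIMPs (−0.041) and of the clock genes (−0.049). In other DMSO libraries the values were 0.029 for the collagen chains in replicate 2 and 0.018 both for the ER chaperones in replicate 3 and for the YAP and TEAD list in replicate 4. Among the INDY libraries, replicate 3 stood apart for LTA (30.4 CPM, the others 23.5 to 24.1), ATF4 (549), LSM10 (31.9) and the Mediator level (0.38), replicate 1 for LTB (1.141) and TAGLN (12.5), and replicate 2 for LSS (133) and the lysosome level (−0.33). None of these libraries overlapped the other group for a gene that had passed.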

How the results depend on the processing

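The counts of 6783 genes higher and 6832 lower stayed within 1.5 times of these values under every alternative except a minimum fold, which by construction gave 2914 higher and 3975 lower at 1.5-fold and 1669 and 2368 at 2-fold. DESeq2 gave 6853 and 6772, limma voom 6769 and 6813, upper-quartile factors 6462 and 7106, library totals 6411 and 7137, no filter 6839 and 7176, at least 10 counts in every library 5976 and 5956, the 8 libraries alone 6336 and 6276, and an adjusted p under 0.05 7543 and 7738. Leaving out 1 library gave 6512 to 6806 higher and 6483 to 6712 lower. With the replicate number as a block 6154 were higher and 6125 lower; same-numbered libraries did not deviate together in every pair, and DMSO replicate 1 correlated best with INDY replicate 3 (0.108), so the numbers were not taken as a pairing. No scaling moved the median of all genes by 0.1. Of 155 genes named in the text, 4 changed their call under an alternative other than a fold minimum, ATF6, DYRK1A, PTPRC and TFEB, and none that had passed turned its direction. ATF6 also lost its call under both other scalings, with no filter, in the 8 libraries alone and with the block, and PTPRC lost it without INDY replicates 1 and 3, the cause of which was not tested. A list median was counted as moved if it changed by more than the SD of the list's level over the INDY libraries. Of 51 list medians, 13 moved without INDY replicates 1 and 3, and 11 without replicates 2 and 4. Of the list medians given, those that moved by over 1.5 times included also the IGF system (−0.69, and −0.44 with at least 10 counts in every library), the NF-kB list (−0.11, and −0.06 without INDY replicates 1 and 3) and the HOX genes (−0.28, and −0.19 without them). Depth limits the genes under about 1 CPM, whose fold changes had the larger errors.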

Other observations

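Further gene groups were counted. Of 37 proteasome subunits, 14 were higher and 10 lower and of 18 glycolytic enzymes 7 were higher and 4 lower, both with medians within 0.07 of 0 under every alternative. Of 281 solute carriers, which move small molecules across membranes, 139 were lower and 65 higher (median −0.19), with SLC10A5 (3.98) and SLC16A4 (3.66) the largest rises and SLC3A1 (−3.88) the largest fall on the log2 scale, all under 4 CPM. Of 57 potassium channels 27 were lower and 7 higher, and of 18 clock genes 9 were lower and 7 higher, with the repressor BHLHE41 going from 10.9 to 13.9 CPM to 2.38 to 3.39 CPM. Of 26 KDM and KMT enzymes, which remove and add histone methyl groups, 16 were higher and 4 lower.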
